A study of Mus musculus with 8 samples.

Results

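Fibroblast growth factor (FGF) genes were examined in choroid plexus of the fourth ventricle, a tissue that secretes cerebrospinal fluid, taken from mice at embryonic day 13. The genes comprised the FGF ligands and their intracellular relatives, the FGF receptors, and the genes that FGF signals induce to restrain or carry out the response. The rule for members uses gene symbols of the array annotation and no measured value, although the set was proposed with earlier results of these data known. It takes symbols of the Fgf series, Fgfr1 to Fgfr4, Fgfrl1, the numbered Spry and Spred genes, Dusp6, Etv4, Etv5 and Il17rd. They numbered 38 of 18193 measured genes. Etv1 belongs to the same set by name, but its 3 probe sets also carry another gene, so it is not analysed here. Each gene was read from the probe set with the highest mean over the arrays.

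One group held 4 arrays from embryos labelled as Otx2 knockout, from an Otx2-deficient mouse strain, and the other held 4 arrays from wildtype embryos. Both groups came from the same litters on a mixed strain background, were untreated, and had embryos of undetermined sex. The labels give neither the deleted part of the gene nor a Cre driver, and they do not say how many embryos made up a sample. The values are log2 expression levels made by the authors with RMA, a method that corrects background, equalises the arrays and summarises the probes of a set.

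In the FGF pathway, secreted ligands bind receptor tyrosine kinases together with heparan sulfate chains on the cell surface, and the receptors signal inward through adaptor proteins to the RAS and MAP kinase cascade. The cascade induces its own inhibitors, among them the Sprouty and Spred proteins, the phosphatase Dusp6 and the membrane protein Il17rd, also called Sef, and it raises the ETS factors Etv4 and Etv5. In the developing brain, FGF signals are known for patterning the midbrain and hindbrain. The fourth ventricular choroid plexus grows from the roof of the hindbrain.

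Otx2, the homeodomain factor named in the labels, read 12.38, 12.46, 12.44 and 12.48 log2 units in knockout-labelled replicates 1 to 4 and 11.998, 12.05, 11.97 and 11.85 in wildtype replicates 1 to 4. The knockout-labelled arrays were all above the wildtype arrays, so this probe set went against the labels (log2 difference 0.47, SE 0.06, limma adjusted p = 0.000648). It checks nothing if it lies outside the deleted part. Directions below therefore rest on the labels, and the arrays are called knockout-labelled. Array medians lay between 5.85 and 5.90.

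Cell-type markers moved with the groups. Of 11 measured markers of the choroid plexus epithelium, 9 were called lower and 1, Otx2, higher, and the list mean was 10.61 to 10.89 in the knockout-labelled arrays against 11.55 to 11.67 in wildtype. The thyroid hormone carrier Ttr was bright in both groups, at 14.17 ± 0.03 and 14.21 ± 0.04 (SD, n = 4 each), so the labelled tissue was present in every array. Ttr was not called. It read close to the highest value of each array, 14.30 to 14.35, where a difference may be compressed. All 10 stromal markers were called higher, with a list mean of 11.03 to 11.41 against 10.52 to 10.62, and 8 of 10 macrophage markers were called higher (9.19 to 9.67 against 8.53 to 8.78). The neuron list had no called gene among 10 and varied widely within both groups, from 7.76 to 9.34 and from 7.40 to 9.03. Of 9 endothelial markers 3 were called lower and 1 higher, and of 6 erythroid markers 1 was called lower. Of all genes, 19.6% were called, 7.84% higher and 11.7% lower. In bulk tissue, fewer cells of a type and less RNA per cell cannot be told apart. The shifts of the epithelial, stromal and macrophage lists cannot be told apart from genotype in these arrays, and their part in the values below was not tested.

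Between the groups, 12 of the 38 FGF genes passed the test (31.6%), against 19.6% of all genes. Of these, 5 had higher levels under the knockout label (13.2% of members, against 7.84% of all genes) and 7 were lower (18.4%, against 11.7%). The groups did not overlap in 12 members (31.6%), against 24.3% of all genes. A call was an adjusted p under 0.05 in limma, adjusted over all 18193 genes. The genes that rose were Fgf11, Fgf15, Fgfr1, Il17rd and Spred1, and those that fell were Fgf7, Fgf12, Fgf14, Fgf18, Fgfr2, Spry1 and Spry3. Leaving out knockout-labelled replicate 1, or replicate 3 or 4 of wildtype, cut the number that rose to 2. Leaving out knockout-labelled replicate 3 or 4 cut it to 3, and it was also 3 with replicate numbers as a block. The share of all genes called was 14.6% to 17% in these omissions and 20.1% with the block. Without knockout-labelled replicate 2, the array with the most neuronal RNA, 5 rose and 8 fell, beside 21.6% of all genes called. A change of 2-fold or more was reached by 2 members, Fgf12 and Fgf15. The median log2 difference over the 38 genes was -0.05, beside 0.00 over all genes, and the median size of the difference regardless of sign was 0.16, beside 0.12 over all genes.

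Most members read low on the array. A total of 25 had a mean under the median of all genes (7.29 log2 units), of which 5 were called (20.0%, against 10.8% of all genes under that level). Of the 13 at or above it, 7 were called (53.8%, against 28.3%). The files hold no detection calls, so a dim reading may be background, and differences of dim probe sets are compressed.

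**Figure D1:**
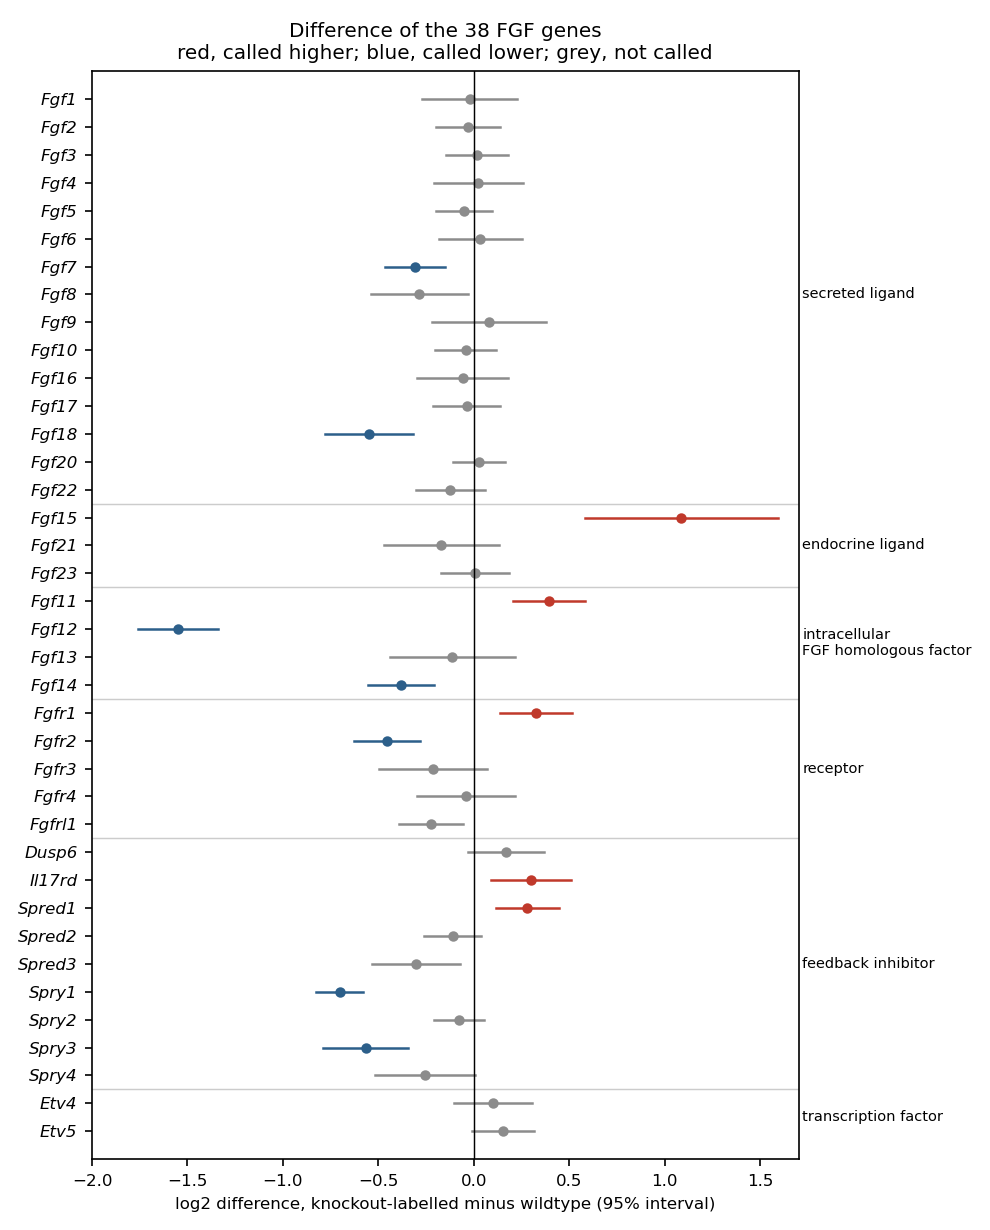
Log2 difference (knockout-labelled minus wildtype, x axis) of each of the 38 FGF genes, with its 95% interval from the limma fit, ordered by role. Red points are the 5 genes called higher, blue the 7 called lower and grey the 26 not called. Fgf12 lies farthest to the left at -1.55 and Fgf15 farthest to the right at 1.09.

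Among the secreted ligands that act on neighbouring cells, 2 of 15 fell, Fgf18 and Fgf7, and 0 rose, with 13 not called. The share called was 13.3%, against 19.6% of all genes. Fgf18, a ligand known from skeletal and lung development, read 7.13, 7.52, 7.17 and 7.49 in knockout-labelled replicates 1 to 4 and 7.90, 7.97, 7.87 and 7.76 in wildtype replicates 1 to 4. The groups did not overlap, and the knockout-labelled arrays formed a lower pair, replicates 1 and 3, and a higher pair, replicates 2 and 4. The mean went from 7.87 ± 0.09 to 7.33 ± 0.21, which is 1.46-fold lower (log2 difference -0.55, SE 0.10, limma adjusted p = 0.0045). It was the only one of the 15 with a mean above the median of all genes.

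Fgf7, the keratinocyte growth factor that mesenchyme makes and epithelia receive, read 5.36, 5.39, 5.44 and 5.62 in the knockout-labelled arrays and 5.77, 5.73, 5.81 and 5.74 in the wildtype arrays. All knockout-labelled arrays lay below all wildtype arrays, replicate 4 closest to them. The difference was small, at -0.31 (SE 0.07, adjusted p = 0.0131). A second, dimmer probe set gave a larger difference, from 5.82 ± 0.17 to 4.83 ± 0.19 (-0.99, adjusted p = 0.000394 over all probe sets). The part of the stromal list, given above, in the values of Fgf7 was not tested.

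The other 13 secreted ligands ranged from -0.29 to 0.08 and had mean levels between 3.10 and 6.22, all under the median of all genes. Fgf8, the signal of the midbrain and hindbrain boundary, was at 4.60 ± 0.18 against 4.89 ± 0.18 and was not called (-0.29, 95% interval -0.54 to -0.03, adjusted p = 0.116). Fgf10, which shares the epithelial receptor with Fgf7, was at 5.04 ± 0.06 against 5.08 ± 0.11 (-0.04, interval -0.20 to 0.12). Fgf9 was at 5.97 ± 0.19 against 5.90 ± 0.24 (0.08, interval -0.22 to 0.38). Fgf22, a ligand known from synapse formation, was at 5.66 ± 0.10 against 5.79 ± 0.12 (-0.12, interval -0.31 to 0.06).

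The remaining 9 include Fgf4, whose brightest probe set was at 6.24 ± 0.21 against 6.21 ± 0.09, while Fgf2, the basic FGF, was at 3.08 ± 0.10 against 3.11 ± 0.10. For these low readings the intervals bound the difference on the array scale, and the true change may be larger where the signal is mostly background. Fgf1, Fgf3, Fgf5, Fgf6, Fgf16, Fgf17 and Fgf20 had mean levels between 3.94 and 5.12 and differences between -0.06 and 0.03.

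Of the 3 endocrine ligands, which act with klotho proteins as co-receptors, Fgf15 rose. Fgf15, the mouse counterpart of human FGF19, is expressed in the embryonic neural tube and is known in the adult as an intestinal hormone that limits bile acid synthesis. It read 8.92, 9.23, 8.69 and 9.21 in knockout-labelled replicates 1 to 4 and 8.55, 8.04, 7.42 and 7.71 in wildtype replicates 1 to 4. The groups did not overlap, and wildtype replicate 1 lay just under the lowest knockout-labelled array, replicate 3. The mean went from 7.93 ± 0.48 to 9.01 ± 0.26, a 2.12-fold rise (log2 difference 1.09, SE 0.22, adjusted p = 0.00804), with the widest 95% interval of the 38 genes, 0.58 to 1.59.

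The spread of Fgf15 among the wildtype arrays was wider than in any other member. The neuron list in the same arrays was at 9.03, 8.58, 7.62 and 7.40 in wildtype replicates 1 to 4 and at 8.27, 9.34, 7.76 and 8.25 in the knockout-labelled ones, so the 2 wildtype arrays with the highest Fgf15 also had the most neuronal RNA. The list of neural progenitor markers had 3 of its 8 genes called higher. It was at 9.76, 9.74, 9.31 and 9.70 in knockout-labelled replicates 1 to 4 and at 9.52, 9.30, 9.10 and 8.96 in wildtype replicates 1 to 4. Knockout-labelled replicate 3 was lowest of its group in both Fgf15 and this list, and wildtype replicate 1 was highest of its group in both. The lowest wildtype array was replicate 3 for Fgf15 and replicate 4 for the list. A rhombic lip list, with 1 of 5 genes called, higher, was at 7.94 to 8.56 against 7.60 to 8.24. A list of the midbrain and hindbrain boundary, with 0 of 5 called, was at 4.48 to 5.08 against 4.36 to 4.91. Beside the counts of these small lists, 19.6% of all genes were called, 7.84% of them higher than wildtype and 11.7% lower, as shares of all genes. With the neuron list mean as a covariate, an alternative added after seeing the data, the difference of Fgf15 was 0.97 (adjusted p = 0.00121). The parts of the progenitor, rhombic lip and boundary lists were not tested.

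The other endocrine ligands were dim and not called. Fgf21, a metabolic hormone of the liver, was at 5.00 ± 0.30 against 5.18 ± 0.10 (-0.17, interval -0.47 to 0.13), and Fgf23, a phosphate hormone of bone, was at 3.80 ± 0.07 against 3.79 ± 0.14 (0.01, interval -0.17 to 0.18).

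The 4 FGF homologous factors, which stay inside the cell and bind voltage-gated sodium channels in place of FGF receptors, held the most changed member. Of the 4, 2 fell (Fgf12 and Fgf14), 1 rose (Fgf11) and 1 was not called (Fgf13). Calls thus covered 75% of this small class, against 19.6% of all genes. Fgf12 read 6.29, 6.63, 6.29 and 6.54 in knockout-labelled replicates 1 to 4 and 7.94, 7.90, 7.996 and 8.11 in wildtype replicates 1 to 4. The gap between the groups was wider than the spread within either. The mean went from 7.99 ± 0.09 to 6.44 ± 0.17, 2.92-fold lower (log2 difference -1.55, SE 0.09, adjusted p = 1.04e-05).

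All 3 probe sets of Fgf12 fell. The second went from 7.45 ± 0.09 to 5.56 ± 0.23 (-1.89, adjusted p = 1.03e-05 over all probe sets) and the last from 5.89 ± 0.13 to 4.23 ± 0.10 (-1.67, adjusted p = 7.04e-06). The part of the epithelial list in this difference was not tested. With the neuron covariate the difference was -1.56 (adjusted p = 3.06e-05).

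Fgf14, mutated in a human ataxia, read 4.92, 4.99, 5.15 and 5.07 in the knockout-labelled arrays and 5.27, 5.39, 5.53 and 5.46 in wildtype. The groups did not overlap, at levels well under the median of all genes, and the difference was -0.38 (SE 0.08, adjusted p = 0.00709). Its 3 dimmer probe sets, at means of 3.94 to 4.11, gave 0.31, 0.02 and 0.21 and were not called. The mean of all its probe sets gave 0.039 (adjusted p = 0.891), so the fall of Fgf14 rests on 1 dim probe set.

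Fgf11 read 7.11, 6.82, 7.11 and 7.13 in the knockout-labelled arrays and 6.65, 6.76, 6.62 and 6.56 in wildtype. Replicate 2 stood apart in the knockout-labelled group, close to the highest wildtype array, also a replicate 2, and the other 3 arrays agreed closely. The difference was 0.40 (SE 0.08, adjusted p = 0.00917), and a dimmer second probe set gave 0.08 (adjusted p = 0.709). Fgf13, known from neuronal migration, was at 8.92 ± 0.28 against 9.04 ± 0.20 and was not called (-0.11, interval -0.44 to 0.21).

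**Figure D2:**
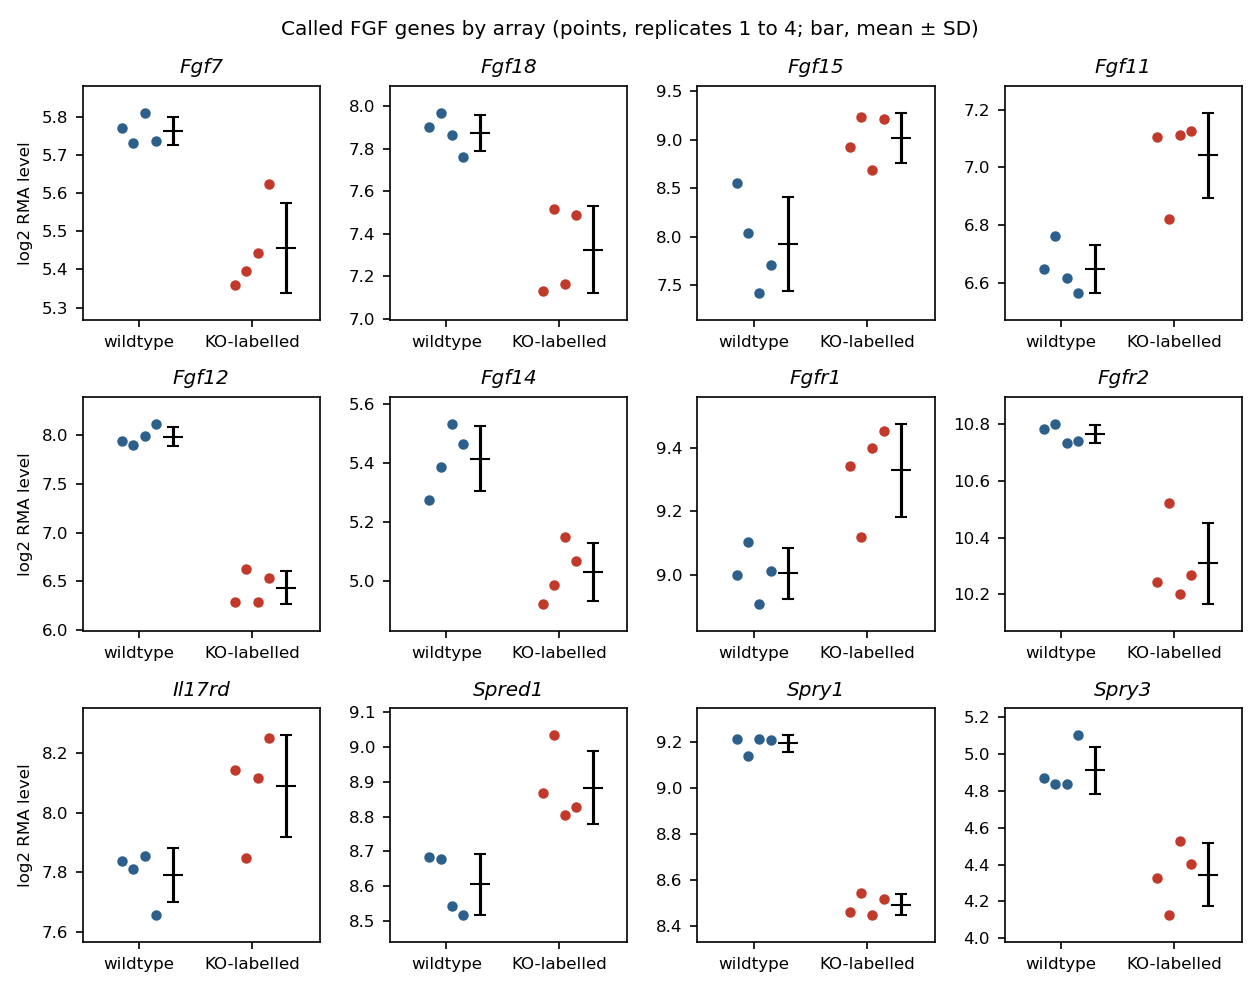
Log2 RMA level (y axis, a separate range in each panel) of the 12 called FGF genes in the 4 wildtype arrays (blue) and the 4 knockout-labelled arrays (red), replicates 1 to 4 from left to right, with the mean ± SD as a black bar. The groups overlap in Il17rd alone, where knockout-labelled replicate 2 at 7.85 lies just under the highest wildtype array at 7.86, and Fgf15 has the widest wildtype spread, from 7.42 to 8.55.

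Of the 5 receptor genes, 1 rose and 1 fell (40% called, against 19.6% of all genes). Fgfr2, the receptor whose epithelial splice form binds Fgf7 and Fgf10, read 10.24, 10.52, 10.20 and 10.27 in knockout-labelled replicates 1 to 4 and 10.78, 10.80, 10.73 and 10.74 in wildtype replicates 1 to 4. Every knockout-labelled array was lower, replicate 2 least so, and the wildtype arrays agreed closely. The mean went from 10.76 ± 0.03 to 10.31 ± 0.14, 1.37-fold lower (-0.46, SE 0.08, adjusted p = 0.00268). A second probe set went from 8.21 ± 0.06 to 7.74 ± 0.13 (-0.47, adjusted p = 0.0038 over all probe sets). The remaining, dim one gave 0.05 and was not called. The probe sets are not annotated here by splice form, so the epithelial and mesenchymal forms were not separated.

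Fgfr1, the receptor of mesenchyme and neuroepithelium, read 9.34, 9.12, 9.40 and 9.45 in the knockout-labelled arrays and 8.999, 9.10, 8.91 and 9.01 in wildtype. Knockout-labelled replicate 2 was barely above the highest wildtype array and the other 3 lay well above. The difference was 0.32 (SE 0.08, adjusted p = 0.0227), and fitting replicate numbers as a block gave an adjusted p of 0.0521. Leaving out single arrays also ended the call 5 times in 8, namely without knockout-labelled replicate 1 (0.058), 3 (0.0591) or 4 (0.0623), and without wildtype replicate 3 (0.0686) or 4 (0.0556). Dimmer probe sets gave 0.21 and -0.03 and were not called.

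Fgfr3, a receptor of neural progenitors and glia, was not called over all arrays, and on its brightest probe set 1 array decided this. It read 8.68, 9.25, 8.66 and 8.67 in the knockout-labelled arrays and 9.03, 8.99, 9.05 and 9.05 in wildtype. Knockout-labelled replicate 2 was above every wildtype array and the other 3 were below every one. The difference was -0.21 (adjusted p = 0.296) over all arrays and -0.36 (adjusted p = 0.00192) without that array, which also had the highest neuron list mean of the 8, 9.34. The neuron covariate left Fgfr3 uncalled (-0.25, adjusted p = 0.166). A second, dimmer probe set of Fgfr3 gave 0.11 (adjusted p = 0.755 over all probe sets). The mean of its probe sets gave -0.05 (adjusted p = 0.862).

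Fgfrl1, a receptor-like protein with no kinase domain, was at 9.16 ± 0.09 against 9.39 ± 0.11 and missed the threshold (-0.23, interval -0.39 to -0.06, adjusted p = 0.0631). Without wildtype replicate 1 it passed (-0.27, adjusted p = 0.0421). Fgfr4, the liver receptor for Fgf15, was at 6.12 ± 0.24 against 6.16 ± 0.10 (-0.04, interval -0.30 to 0.22).

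Of the 9 feedback inhibitors, 2 fell, 2 rose and 5 were not called (44.4% called, against 19.6% of all genes). Spry1, a Sprouty protein that FGF signals induce and that blocks the RAS cascade, read 8.46, 8.54, 8.45 and 8.51 in knockout-labelled replicates 1 to 4 and 9.21, 9.14, 9.22 and 9.21 in wildtype replicates 1 to 4. Both groups were tight and far apart relative to their spread. The mean went from 9.19 ± 0.04 to 8.49 ± 0.05, 1.63-fold lower (-0.70, SE 0.055, adjusted p = 3.68e-05).

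Spry3 read 4.33, 4.12, 4.53 and 4.40 in the knockout-labelled arrays and 4.87, 4.84, 4.84 and 5.10 in wildtype. The groups did not overlap, at a dim level, and the difference was -0.57 (SE 0.10, adjusted p = 0.00307). The other Sproutys were not called. Spry2 was at 7.67 ± 0.06 against 7.74 ± 0.05 (-0.08, interval -0.21 to 0.06) and Spry4 at 5.92 ± 0.18 against 6.18 ± 0.19 (-0.26, interval -0.52 to 0.01). The difference of Spry1 is outside the interval of Spry2, but a test of Spry1 against Spry2 was not run.

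Spred1, which restrains RAS by recruiting neurofibromin, read 8.87, 9.03, 8.81 and 8.83 in the knockout-labelled arrays and 8.68, 8.68, 8.54 and 8.52 in wildtype. The groups did not overlap, with a gap narrower than the range of either group, and the difference was 0.28 (SE 0.07, adjusted p = 0.026). Leaving out replicate 1 of the knockout-labelled arrays (0.0565), or replicate 3 (0.0745) or 4 (0.0776) of wildtype, ended the call. It rests on the brightest of 8 probe sets. The next, at a mean of 8.59, gave 0.10 (adjusted p = 0.416) and the mean of all 8 gave 0.087 (adjusted p = 0.317).

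Il17rd read 8.14, 7.85, 8.12 and 8.25 in the knockout-labelled arrays and 7.84, 7.81, 7.86 and 7.66 in wildtype. The groups overlapped through knockout-labelled replicate 2, and the difference was 0.30 (SE 0.09, adjusted p = 0.049). Of the 8 fits without 1 array, only that without knockout-labelled replicate 2 kept the call (0.38, adjusted p = 0.00616). In the other 7 the adjusted p was 0.0741 to 0.131, and with the replicate block it was 0.0775.

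Of the inhibitors not called, Spred3 came closest, at 6.57 ± 0.20 against 6.88 ± 0.10 with groups that did not overlap (-0.30, interval -0.54 to -0.07, adjusted p = 0.07). Spred2 was at 8.98 ± 0.07 against 9.09 ± 0.08 (-0.11, interval -0.26 to 0.04). Dusp6, the phosphatase that switches off ERK and is widely used as a readout of FGF signalling, read 9.32, 9.20, 9.24 and 9.10 in the knockout-labelled arrays and 9.19, 9.13, 9.06 and 8.82 in wildtype. Its groups overlapped, and it was not called (0.17, interval -0.03 to 0.37, adjusted p = 0.245).

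The ETS factors downstream of the pathway were not called either. Etv5 was at 7.15 ± 0.12 against 6.99 ± 0.06 (0.15, interval -0.01 to 0.32, adjusted p = 0.185) and Etv4 at 6.42 ± 0.15 against 6.32 ± 0.12 (0.10, interval -0.10 to 0.30, adjusted p = 0.517).

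**Figure D3:**
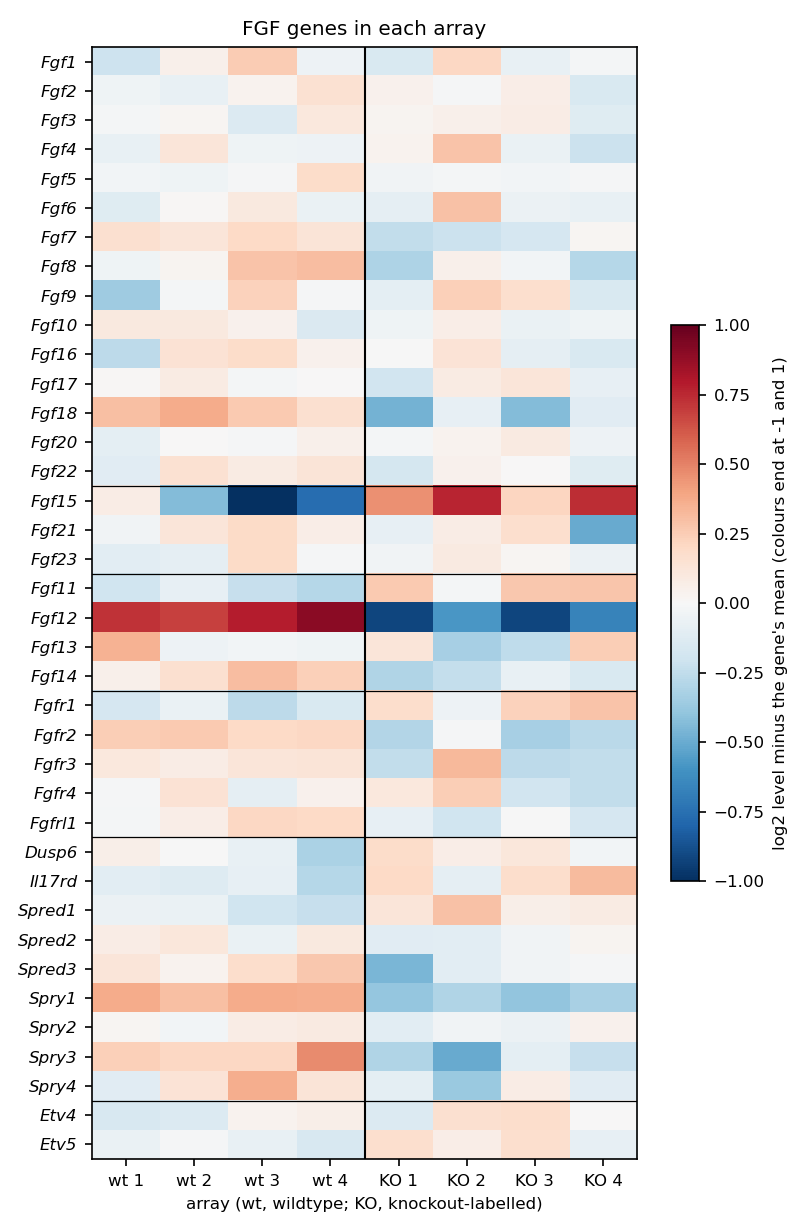
Level of each of the 38 FGF genes in each array as log2 difference from the gene's own mean over the 8 arrays (colour, with the scale ending at -1 and 1). Rows are ordered by role and columns by group, wildtype replicates 1 to 4 on the left and knockout-labelled replicates 1 to 4 on the right. Fgf12 and Spry1 change colour between the groups in every array, and Fgfr3 stands out in knockout-labelled replicate 2 alone of its group.

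Several probe sets were available for 24 of the 38 genes, 86 probe sets in all. Of the 12 called genes, 8 had further probe sets, 19 together. Among these 19, 4 were called in the same direction as the brightest one, 0 were called in the opposite direction and 15 were not called (limma, adjusted over all probe sets that are not controls). The 4 belong to Fgf12, Fgf7 and Fgfr2. The calls of Fgf11, Fgf14, Fgfr1, Il17rd and Spred1 therefore stand on 1 probe set each, and Fgf15, Fgf18, Spry1 and Spry3 have only 1. Of the 29 further probe sets of genes that were not called, 0 were called.

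**Figure D4:**
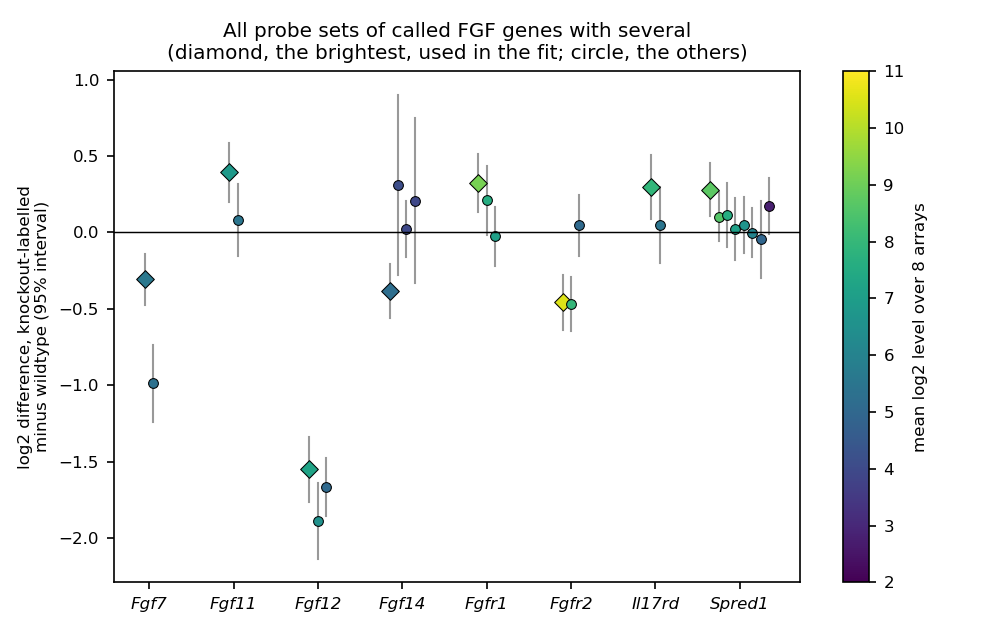
Log2 difference (knockout-labelled minus wildtype, y axis, with its 95% interval) of every probe set of the 8 called FGF genes that have several. Diamonds are the brightest probe set, circles the others, and the colour gives the mean log2 level over the 8 arrays. The 3 probe sets of Fgf12 lie together between -1.89 and -1.55, whereas those of Spred1 lie between -0.05 and 0.28.

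RefSeq start-site windows (250 bases before to 50 after the start, GRCm38.p6) were matched by symbol and used for 28 of the 38 genes, 36 windows in all. Among them were 9 of the 12 called genes, while the called genes Fgf15, Fgfr1 and Spry3 had no window. The bicoid-type core TAATCC, which Otx proteins are known to bind, was searched on both strands and was present in 2 of the 36 windows (5.56%), against 7.06% of all 32851 windows. The ETS-type motif CNGGAAG, a match to the core that Etv factors recognise, was present in 9 (25.0%), against 31.89%. Any member windows on an autosome left out of the search are not counted, while the windows of all genes include that chromosome. The shares therefore come from differently filtered sets. Neither motif contains the other. The windows below are shown for Spry1, the called member with the smallest adjusted p among those with a single window, and for the receptor and ligand Fgfr2 and Fgf7. That of Il17rd is also shown, which among the 9 called members with a window was the only one with the Otx core. These windows were chosen after the values were seen, are written 5′ to 3′ on the gene's strand, and have motif matches in capitals. A match is a description of letters and not a binding site.
Spry1, chr3:37639697-37639996, plus strand: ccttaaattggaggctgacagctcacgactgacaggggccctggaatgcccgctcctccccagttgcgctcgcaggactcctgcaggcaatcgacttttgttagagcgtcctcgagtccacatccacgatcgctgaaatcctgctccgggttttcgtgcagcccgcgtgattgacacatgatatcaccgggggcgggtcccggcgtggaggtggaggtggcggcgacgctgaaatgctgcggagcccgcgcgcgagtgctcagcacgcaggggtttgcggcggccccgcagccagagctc
Fgfr2, chr7:130266759-130267058, minus strand: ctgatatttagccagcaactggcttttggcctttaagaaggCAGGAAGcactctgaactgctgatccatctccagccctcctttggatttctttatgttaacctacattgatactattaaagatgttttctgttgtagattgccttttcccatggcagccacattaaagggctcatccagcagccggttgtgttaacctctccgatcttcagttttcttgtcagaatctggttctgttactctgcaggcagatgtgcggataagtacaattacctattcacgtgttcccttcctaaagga
Fgf7, chr2:126034408-126034707, plus strand: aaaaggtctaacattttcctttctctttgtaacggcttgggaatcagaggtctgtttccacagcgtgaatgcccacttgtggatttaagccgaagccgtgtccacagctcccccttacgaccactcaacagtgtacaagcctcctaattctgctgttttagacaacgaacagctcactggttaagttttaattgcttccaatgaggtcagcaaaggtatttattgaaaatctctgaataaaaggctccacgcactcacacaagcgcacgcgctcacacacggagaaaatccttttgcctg
Il17rd, chr14:27038751-27039050, plus strand: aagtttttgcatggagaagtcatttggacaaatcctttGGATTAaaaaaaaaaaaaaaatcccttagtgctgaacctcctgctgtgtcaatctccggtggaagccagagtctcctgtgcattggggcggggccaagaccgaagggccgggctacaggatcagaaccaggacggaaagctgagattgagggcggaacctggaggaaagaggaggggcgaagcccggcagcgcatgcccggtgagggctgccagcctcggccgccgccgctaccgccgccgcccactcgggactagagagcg

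In these windows, Spry1 and Fgf7, both lower, held neither motif. Fgfr2, also lower, held 1 ETS-type match and Il17rd, higher, held 1 Otx core on the opposite strand, read as GGATTA. The other window with an Otx core was that of Spred3. The GC content of the printed windows was 64.3% for Spry1, 43.7% for Fgfr2, 45.7% for Fgf7 and 58.3% for Il17rd, beside a median of 52.7% over all windows. Fgf12 has 4 start windows in the table, and the arrays do not say which start was in use.

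Other genes that carry or modify FGF signals were read from a list of 64, of which 57 were measured. Of the 57, 14 rose and 8 fell (38.6% called, against the 19.6% of all genes), with a median log2 difference of 0.10. The share higher was 24.6% and the share lower 14%, against 7.84% and 11.7% of all genes. These genes were mostly bright: 43 of the 57 were at or above the median level, of which 44.2% were called, against 28.3% of all genes at that level. Leaving out 1 array at a time left 7 to 17 higher and 7 to 9 lower, beside 14.6% to 21.6% of all genes called. Wildtype replicate 4 gave the lowest number higher when it was left out, leaving out knockout-labelled replicate 1 or 4 gave 9, and leaving out wildtype replicate 2 or 3 gave 10.

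The heparan sulfate genes, which make and trim the co-receptor sugar chains, had 11 calls among 23 measured genes (47.8%, against 19.6% of all genes). Of these 11 genes, 7 rose and 4 fell. All 11 were among the 18 at or above the median level (61.1%, against 28.3% of all genes there). Of the 5 measured enzymes that set 6-O-sulfation, a mark that FGFs read on the chain, 3 were called. Sulf1, an extracellular enzyme that removes the mark, fell from 11.98 ± 0.08 to 10.75 ± 0.20 (-1.23, SE 0.10, adjusted p = 4.32e-05), while its relative Sulf2 rose from 11.33 ± 0.06 to 11.94 ± 0.10 (0.60, adjusted p = 0.000296). Hs6st2, which adds the mark, fell by 0.62 on the log2 scale (adjusted p = 0.000195). Its relatives Hs6st1 (0.14, adjusted p = 0.442) and Hs6st3 (-0.06, adjusted p = 0.738) were not called. The Sulf2 call was lost with probe sets of a plain suffix only (0.16, adjusted p = 0.483).

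Among the core proteins of the chains, the glypican Gpc4 rose by 0.80 (adjusted p = 0.000273) and the syndecan Sdc1 by 0.52 (adjusted p = 0.00404). Sdc4 fell by 0.54 (adjusted p = 0.00314). The glypican Gpc3 was lower by a smaller amount (-0.25, adjusted p = 0.0164), a call lost without wildtype replicate 2 (0.0555). Sdc3 (0.27) and the chain polymerase Ext1 (0.29) lost their calls without wildtype replicate 4 (0.0521) and replicate 3 (0.0545). The call of Gpc1 (0.31) ended in 6 of these 8 fits, with adjusted p up to 0.112, and held when knockout-labelled replicate 3 or wildtype replicate 1 was left out. That of Gpc6 (0.25) ended in 7, up to 0.121, and held when knockout-labelled replicate 2 was left out, and the block gave an adjusted p of 0.0732. The Sdc3 call was also lost with the mean of its probe sets (adjusted p = 0.606), and so was that of Gpc6 (adjusted p = 0.0534).

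Among 9 cofactors and carriers, 1 fell and 1 rose (22.2% called, against 19.6% of all genes). Kl, klotho, the co-receptor of Fgf23 and a known choroid plexus protein, went from 5.36 ± 0.25 to 4.19 ± 0.19 (-1.16, SE 0.13, adjusted p = 0.000287), a dim reading in both groups. The mean of its probe sets gave -0.70 (adjusted p = 0.000183). Flrt2, of a membrane protein family that binds FGF receptors, rose from 10.89 ± 0.08 to 11.32 ± 0.05 (0.43, adjusted p = 0.00115). Klb, the co-receptor of Fgf15 and Fgf21, was not called (0.01, interval -0.13 to 0.16).

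Of 15 measured adaptors and cascade genes, 2 rose, 2 fell and 11 were not called (26.7% called, against 19.6% of all genes). At or above the median level lay 14 of them, of which 28.6% were called, against 28.3% of all genes there. The adaptors Gab1 and Shc1 rose by 0.35 (adjusted p = 0.00277) and 0.30 (adjusted p = 0.00315). The kinase Braf went from 9.75 ± 0.04 to 9.13 ± 0.12 (-0.62, adjusted p = 0.000269), and the RAS activator Sos1 fell by 0.39 (adjusted p = 0.0104). The Gab1 call was lost with the mean of its probe sets (0.17, adjusted p = 0.0883). With the same choice Braf stayed called but fell by less (-0.24, adjusted p = 0.00883).

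Of 10 phosphatases and responsive factors, 4 rose and 1 fell (50% called, against 19.6% of all genes). Dusp9, an ERK phosphatase, went from 6.29 ± 0.16 to 5.59 ± 0.07 (-0.70, adjusted p = 0.000459). Egr1, an immediate early factor, rose by 0.56 (adjusted p = 0.0209), a call that ended without replicate 1 of the knockout-labelled arrays (0.0575) and without replicates 1 (0.0536) or 4 (0.0635) of wildtype. The calls of Myc (0.44) and Ier2 (0.28) ended in 6 of the 8 single-array omissions, with adjusted p up to 0.0772 and 0.124. Fitting replicate numbers as a block ended both as well (adjusted p = 0.0636 and 0.0546). Myc held when replicate 2 of either group was left out, and Ier2 when knockout-labelled replicate 2 or wildtype replicate 1 was. The call of Dusp7 (0.25) ended in 4: knockout-labelled replicate 4 (0.0578) and wildtype replicates 2 (0.0532), 3 (0.0608) and 4 (0.055).

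**Figure D5:**
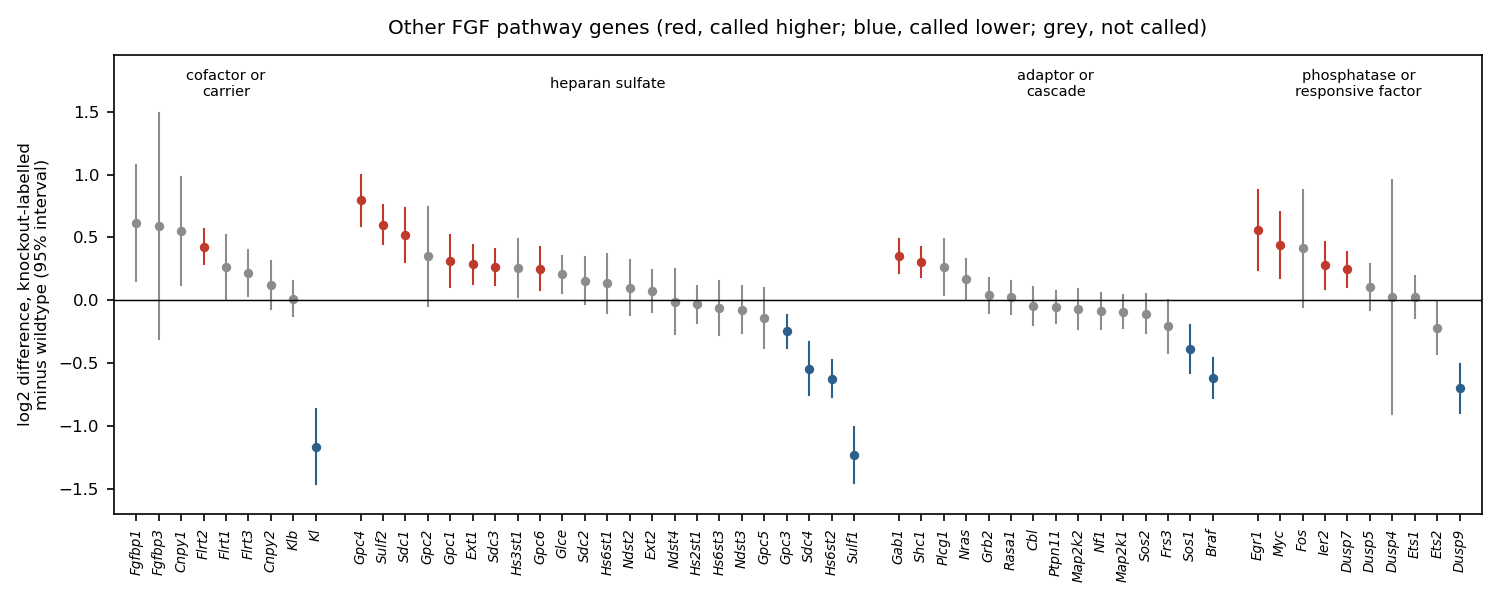
Log2 difference (knockout-labelled minus wildtype, y axis, with its 95% interval) of 57 further FGF pathway genes in 4 classes, sorted by difference within each class. Red points are the 14 called higher, blue the 8 called lower and grey the 35 not called. Sulf1 at -1.23 and Kl at -1.16 are the lowest, and Gpc4 at 0.80 is the highest.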

How the data were processed

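Total RNA of choroid plexus was hybridised with 1 array per sample, and the deposited values are log2 levels that the authors computed by RMA (named in the submitters' processing notes), with software, version and filters not given in the sources used here. Of 45101 probe sets, 64 were controls and 34945 had 1 gene. The brightest probe set stood for each of 18193 genes, and all 38 members matched the mouse gene table by gene ID.

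Knockout-labelled and wildtype arrays were compared with the limma package, version 3.58.1, under R 4.3.3 (two-sided moderated test after lmFit and eBayes, with genotype as the only term and no filter), with Benjamini-Hochberg adjustment over all genes. Differences subtract wildtype from knockout-labelled means, and ± gives the SD over 4 arrays. The labels call the samples biological replicates without naming embryos. The p-values therefore set each difference against the spread between these samples, moderated over all genes. The number of arrays limits the precision. The step was tested on simulated data.

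Any member could be named. Called members and Otx2 got per-array values, and so did Fgfr3 and Dusp6, chosen after their values were seen. Uncalled members beyond the 12 brightest are named for completeness. Pathway genes were named if called, and Klb was added after its value was seen. Members and lists were chosen with earlier results of these data known.

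Correlations of deviations from group means across genes were 0.131 to 0.232 for same-numbered arrays and -0.296 to 0.294 for the others. Each same-numbered value exceeded 0.1, the rule for giving the fit with replicate numbers as a block beside results it changes. Both groups came from the same litters, but no label states a pairing, and the reported calls come from the fit without the block. Alternatives were the replicate block, array weights, a trended robust prior, other probe set choices, all probe sets tested, a dim-gene filter, normalizations, thresholds, each array left out, and a neuron covariate.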

Additional observations from a re-analysis of the deposited data

Results flagged for a closer look

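In 8 of 76 groups of 4 arrays (38 genes in 2 groups), the gap of 1 array from the other 3 exceeded Dixon's critical value for 4 samples. The gap is taken relative to the range of its group, so a small gap in a tight group is also flagged. Chance flags about 1 in 20 such groups. In 4 of the 8 the array was knockout-labelled replicate 2. Fgfr3 was 9.25 there against 8.66 to 8.68 in the others, Fgf11 was 6.82 against 7.11 to 7.13, Fgf6 was 4.38 against 4.00 to 4.04, and Fgf10 was 5.12 against 4.99 to 5.01. The same array had the highest neuron list mean, 9.34, and the part of that in these values was not tested beyond the neuron covariate, with which Fgf11 was 0.41 (adjusted p = 0.0108).

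In wildtype arrays, Fgf13 was 9.33 in replicate 1 against 8.93 to 8.95, Spry1 was 9.14 in replicate 2 against 9.21 to 9.22, Spry3 was 5.10 in replicate 4 against 4.84 to 4.87, and Fgf5 was 4.42 in replicate 4 against 4.19 to 4.22. The calls of Spry1 and Spry3 held in all 8 fits that left out 1 array, with differences of -0.72 to -0.69 and -0.63 to -0.49.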

How the results depend on the processing

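Of the 12 calls, 9 held in all 8 fits without 1 array and 7 (Fgf7, Fgf11, Fgf12, Fgf15, Fgf18, Spry1 and Spry3) also in every other fit that held the gene, at the same threshold. Otx2 kept its call and direction in every fit that held it (0.43 to 0.50 without 1 array), and is absent from that with plain-suffix probe sets. The number of members higher was 5, and 2 to 5 without 1 array: 2 when knockout-labelled replicate 1 or wildtype replicate 3 or 4 was left out, and 3 when knockout-labelled replicate 3 or 4 was. It was 3 with the replicate block, with 7 lower, beside 20.1% of all genes called in either direction. The block changed no member call other than Fgfr1 and Il17rd. With the mean of probe sets 2 of 38 members were higher and 6 lower, beside 18.1% of all genes. With plain-suffix probe sets 3 of 35 were higher and 6 lower, beside 18.4%. At adjusted p under 0.01, 2 of 38 were higher and 6 lower, beside 10.7%. With a fold change of at least 1.5, 1 was higher and 2 lower, beside 6.6%. The fits without 1 array called 14.6% to 21.6% of all genes. The number lower was 7, with 7 to 8 without 1 array, 4 over genes above the median level (median difference -0.112, since 25 members leave that fit) and 2 with the fold minimum. Among the other pathway genes, 6 were higher at adjusted p under 0.01, 2 higher and 5 lower with the fold minimum, and 7 to 17 higher and 7 to 9 lower without 1 array. The block also ended the calls of Ier2 (adjusted p = 0.0546), Myc (0.0636) and Gpc6 (0.0732).

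Signs turned for 3 called members. Fgf14 was 0.039 with the mean of probe sets. Fgfr1 was -0.025 and Fgfr2 0.047 with plain-suffix probe sets, which leaves each to another, dimmer probe set. Fgfr3 and Fgfrl1 were uncalled but passed in some fits: Fgfr3 with array weights (adjusted p = 0.0499) and without knockout-labelled replicate 2, Fgfrl1 with the trended prior (0.0358), above the median level (0.0275), with median centring (0.0437), with the neuron covariate (0.0422) and without wildtype replicate 1. Il17rd was lost in 6 of 10 other alternatives (adjusted p 0.0111 to 0.162 over all 10). The cause of these changes was not tested beyond that. The dimness of most ligands limits what their values can show.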
